A study of Mus musculus with 48 samples.

Results

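Mature RPMs (red pulp macrophages) of *Il1rl1*-/- mice were compared with those of WT mice by RNA-seq. Chosen by their labels for cell type and genotype, 8 libraries entered, 4 of each genotype, of 24 RNA-seq libraries among 48 samples in the series. Each library came from the spleen of 1 male Balb/c mouse, 10 weeks old, and held cells sorted as Ly6Glo CD11blo/- F4/80hi. The mutant mice carry the germline deficiency in all their cells, and the labels name no treatment. The same comparison in pre-RPMs and monocytes, with 4 mice in each group, is used only to show where RPMs differ.

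RPMs take up old red blood cells in the splenic red pulp, break down their heme, and return the iron to the circulation. The transcription factor SPIC directs their development from monocytes, and heme induces it. *Il1rl1* encodes ST2, the receptor chain for the cytokine IL-33, which signals through MyD88 to MAP kinases. The comparison asks which transcripts differ in those RPMs that had matured without this receptor.

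Between 4229522 and 5326720 read pairs were counted on genes in each of these libraries. The mature phenotype was present in both genotypes. The mean level of *Spic* was 310 and 380 CPM (counts scaled to the TMM-adjusted library size and read per 1000000), of *Vcam1*, an adhesion molecule of RPMs, 1630 and 1790, and of *Adgre1*, which encodes F4/80, 256 and 295, WT first. *Itgam*, which encodes CD11b and was selected against in the sort, had a mean of 2.26 CPM in WT and 1.19 in *Il1rl1*-/- RPMs. The floor, 3 counts in a library, corresponded to between 0.491 CPM (mutant replicate 2) and 0.812 CPM (WT replicate 3). The ribosomal RNA-related transcript *Gm42418* took between 25.9% and 35.1% of the counts and mitochondrial genes between 7.71% and 10.6%. WT replicate 3 stood apart most from its group, and the first principal component of the 8 libraries, with 31.3% of the variance, did not separate the genotypes, whereas the second, with 17.7%, did.

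*Il1rl1* itself (ENSMUSG00000026069, chromosome 1 of GRCm38, 40429570 to 40465415, plus strand) was scarce in RPMs. Its counts were 5, 9, 7, and 13 in WT replicates 1 to 4 and 1, 7, 3, and 6 in those labelled *Il1rl1*-/-. This amounted to 1.96 ± 0.80 CPM against 0.833 ± 0.487 (mean ± SD, n = 4). The groups overlapped, and the difference in mean log2 CPM was -0.96 (exact 2-sided permutation test, p = 0.0857, where 4 against 4 libraries allow 0.0286 at the lowest). The count is over all exons, so it does not show which part of the gene the reads came from, and in pre-RPMs and monocytes it went against the label, at log2 fold changes of 1.52 (SE 0.20, adjusted p = 0.00107 by edgeR) and 2.13 (SE 0.23, adjusted p = 0.00881 by edgeR). Directions are therefore those between libraries labelled *Il1rl1*-/- and WT.

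Few genes differed between the genotypes in mature RPMs. At an adjusted p under 0.05 in edgeR's quasi-likelihood test, 26 of 11150 genes tested were called, or 0.233%, and 17 were higher (0.152%) and 9 lower (0.0807%) in *Il1rl1*-/- RPMs. At an unadjusted p under 0.05 there were 811 (7.27%), of which 357 were higher (3.2%) and 454 lower (4.07%). The groups did not overlap in any of the 26 called genes, as in 4.32% of all genes tested. Same-numbered libraries of the genotypes deviated together from their group means, but 2 of the 8 libraries correlated best with their own number. With the replicate number as a block 81 genes were called, or 0.726%, of which 27 were higher and 54 lower. All 26 were among these 81. The 95% confidence interval of the log2 fold change lay within 1 unit of 0 for 87.2% of the genes tested, and the median log2 fold change of all genes was -0.00121. Of the 26, 21 are protein-coding, 3 are snRNA genes, and *Igkv9-124* and *Gm38070* are an immunoglobulin variable segment and a transcript of unknown kind. Just inside the threshold were *Abca9* and *Col19a1* (both adjusted p = 0.0239 by edgeR), and just outside it *Spats2* (adjusted p = 0.0549 by edgeR) and *Slc9a9* (adjusted p = 0.0569 by edgeR).

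**Figure D1:**
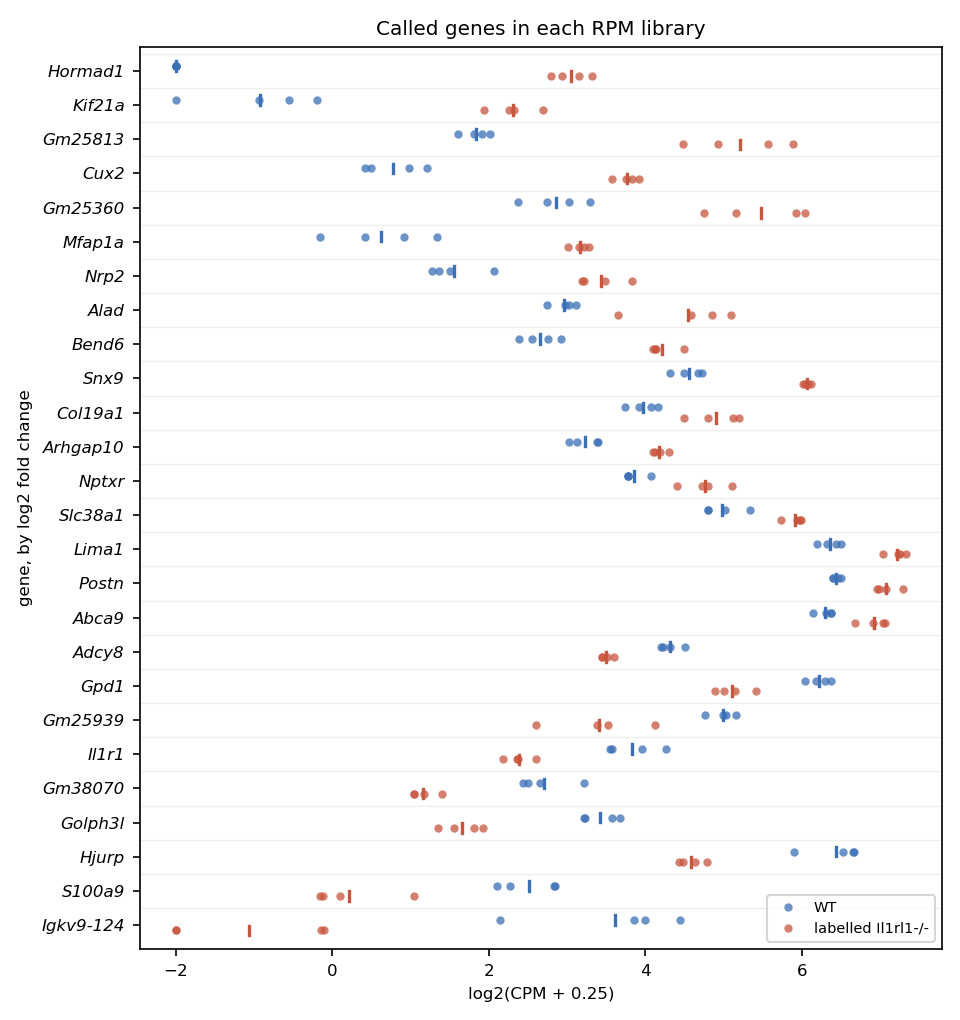
The level of each of the 26 called genes in the 8 RPM libraries, as log2(CPM + 0.25) on the x axis, with a point per library, blue for WT and red for libraries labelled *Il1rl1*-/-, and a bar at each mean. In every gene the 4 red points lie on the same side of all 4 blue points, and *Hormad1* has no counts in WT.

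The smallest p-value belonged to *Snx9* (ENSMUSG00000002365, chromosome 17, 5841329 to 5931954, plus strand), a sorting nexin that bends membranes in endocytosis. Its level was 26.2, 19.7, 25.2, and 22.3 CPM in WT and 68.9, 67.1, 65.3, and 64.4 in *Il1rl1*-/- RPMs. The values within each group lay close together, with a wide gap between the groups. The log2 fold change was 1.51 (SE 0.10, adjusted p = 2.82e-05 by edgeR). The related nexins *Snx18* and *Snx33* had log2 fold changes of -0.02 and 0.13 and were not called.

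*Nrp2* (ENSMUSG00000025969, chromosome 1, 62703285 to 62818695, plus strand) encodes neuropilin-2, a receptor for semaphorins and VEGF-C. It measured 2.58, 3.94, 2.17, and 2.32 CPM in WT and 13.9, 8.84, 10.9, and 9.07 in *Il1rl1*-/- RPMs. It was low but above the floor in every library, and all mutant libraries were above the highest of WT. This was a log2 fold change of 1.92 (SE 0.25, adjusted p = 0.0034 by edgeR).

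These genes differed from the earlier stages by test. The genotype difference of *Snx9* in RPMs exceeded that in pre-RPMs by 1.39 (SE 0.20, adjusted p = 0.00484 for the interaction by edgeR, in log2 units) and that in monocytes by 1.85 (SE 0.24, adjusted p = 0.00819 by edgeR), where its own log2 fold changes were 0.13 and -0.34. That of *Nrp2* exceeded them by 2.72 (SE 0.34, adjusted p = 0.00118 by edgeR) and 2.66 (SE 0.37, adjusted p = 0.00819 by edgeR). In pre-RPMs, scaled on their own, *Nrp2* averaged 16.9 CPM in WT and 9.63 in libraries with the mutant label, the opposite order to that in RPMs. This difference within pre-RPMs was not called (log2 fold change -0.79, SE 0.20, adjusted p = 0.109 by edgeR). *Arhgap10*, a RhoGAP, was higher in mutant RPMs by a log2 fold change of 0.95 (SE 0.14, adjusted p = 0.01 by edgeR) and also differed from pre-RPMs, where its log2 fold change of -0.62 was not called (interaction 1.58, SE 0.29, adjusted p = 0.0246 by edgeR). The latter interaction was called in 4 of 8 fits with an RPM library left out, whereas those of *Snx9* and *Nrp2* were called in all 8.

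In all, the genotype difference in RPMs departed from that in pre-RPMs for 13 of 12150 genes, or 0.107%, and from that in monocytes for 4 of 12592, or 0.0318%. Blocked by mouse number within genotype, these counts were 36 and 21. Besides *Nrp2* and *Snx9*, the smallest p-values against pre-RPMs were those of *Pou6f1*, a POU transcription factor, *Adam23*, a cell adhesion protein, and *Gabbr1*, a subunit of the GABA-B receptor. In RPMs their mean levels in WT and mutant were 25.3 and 23.1 CPM for *Pou6f1*, 50.4 and 40.7 for *Adam23*, and 82.2 and 78.2 for *Gabbr1*, and none was called there. Their genotype differences lay in pre-RPMs, at log2 fold changes of 1.72, 2.27, and -1.44. *Bank1*, an adaptor known from B cells, and the cholesterol exporter *Abca1* likewise differed in the interaction, from 20.98 and 10.7 CPM in pre-RPMs to 189 and 202 in RPMs for *Bank1*, and from 17.0 and 10.6 to 142 and 174 for *Abca1*.

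**Figure D2:**
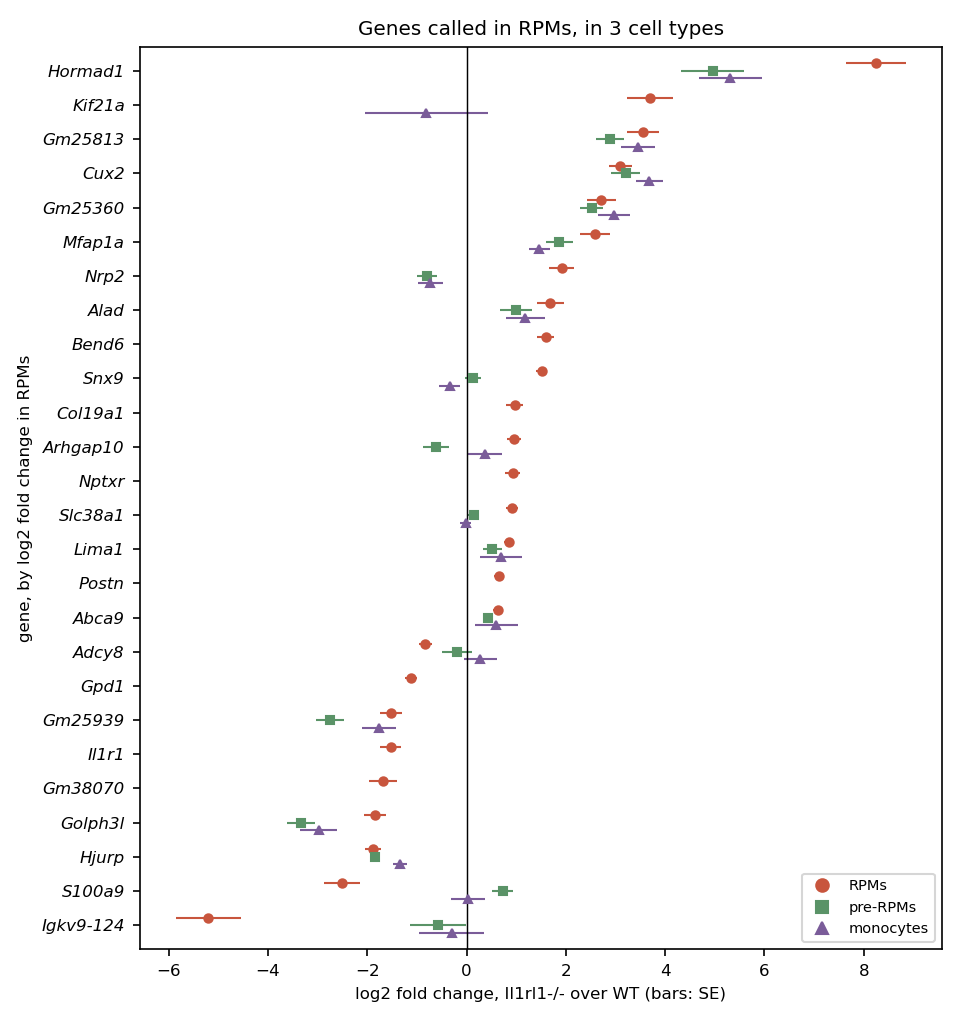
The log2 fold change of *Il1rl1*-/- over WT on the x axis for the 26 genes called in RPMs, in RPMs (circles), pre-RPMs (squares), and monocytes (triangles), with bars for the SE and no symbol where the gene was not tested. *Snx9* and *Nrp2* lie far above their values in pre-RPMs and monocytes, whereas *Cux2*, *Hjurp*, and *Golph3l* lie on the same side in all 3.

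Other genes were called in every cell type. Of the 26 genes, 18 were tested in pre-RPMs, 9 of them called there (against 0.552% of all genes in that cell type), and 19 in monocytes, 6 of them called (against 0.0614%). The 6 called in all 3 cell types were *Cux2*, *Hormad1*, *Golph3l*, *Hjurp*, *Gm25813*, and *Gm25360*. *Mfap1a*, *Gm25939*, and *Abca9* were called in pre-RPMs too. The other 17 were called in RPMs alone, but that does not by itself set the cell types apart, since the interaction was called for only 4 of the 26 against pre-RPMs and 3 against monocytes. The labels use the same mouse numbers in each cell type of a genotype. Calls shared between cell types may therefore come from the same mice and are not shown to be independent.

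*Hormad1* (ENSMUSG00000028109, chromosome 3, 95559677 to 95587671, plus strand) encodes a meiotic chromosome axis protein and had no counts in the 4 WT libraries. In *Il1rl1*-/- RPMs it measured 7.41, 6.71, 8.67, and 9.72 CPM, at least 11.7-fold above a floor of 3 counts in each WT library. *Golph3l* (ENSMUSG00000046519, chromosome 3, 95588934 to 95619247, plus strand), a Golgi protein, starts 1.26 kb beyond the end of *Hormad1* on the same strand and went the other way. It measured 9.03, 9.12, 11.6, and 12.5 CPM in WT and 2.69, 2.29, 3.56, and 3.24 in the mutant, a log2 fold change of -1.85 (SE 0.22, adjusted p = 0.00187 by edgeR). Its relative *Golph3* averaged 32.8 and 30.2 CPM.

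*Cux2* (ENSMUSG00000042589, chromosome 5, 121856366 to 122050102, minus strand) is a homeobox transcription factor best known from cortical neurons. It measured 1.72, 2.07, 1.08, and 1.16 CPM in WT and 13.9, 11.6, 14.9, and 13.2 in *Il1rl1*-/- RPMs, a log2 fold change of 3.10 (SE 0.23, adjusted p = 4.4e-05 by edgeR). *Hjurp* (ENSMUSG00000044783, chromosome 1, 88262471 to 88277633, minus strand), the chaperone of the centromeric histone CENP-A, measured 91.8, 100, 59.3, and 101 CPM in WT and 22, 24.6, 27.3, and 21.2 in the mutant. Its log2 fold change was -1.89 (SE 0.16, adjusted p = 0.000114 by edgeR), with the lowest WT value in replicate 3. *Mfap1a*, a spliceosome component, averaged 1.41 ± 0.71 and 8.72 ± 0.70 CPM (mean ± SD, n = 4) at a log2 fold change of 2.59. Its nearly identical copy *Mfap1b* had a log2 fold change of 1.58 (adjusted p = 0.0774 by edgeR, and 0.0415 with the replicate block), so how the reads divide between them is uncertain.

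The 3 snRNA genes are copies of the U2 spliceosomal RNA, and their sequences are shown because they differ at only 5 of 191 positions, set in capitals, while their counts moved in different directions. They are given 5′ to 3′ from GENCODE M21 on GRCm38, *Gm25360* at chr1:72226240-72226430 on the plus strand, *Gm25939* at chr1:72255008-72255198 on the plus strand, and *Gm25813* at chr8:52336915-52337105 on the minus strand.
Gm25360: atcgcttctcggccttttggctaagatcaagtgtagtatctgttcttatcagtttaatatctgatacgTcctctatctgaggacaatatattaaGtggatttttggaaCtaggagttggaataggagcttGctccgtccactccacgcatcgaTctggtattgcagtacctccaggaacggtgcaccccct
Gm25939: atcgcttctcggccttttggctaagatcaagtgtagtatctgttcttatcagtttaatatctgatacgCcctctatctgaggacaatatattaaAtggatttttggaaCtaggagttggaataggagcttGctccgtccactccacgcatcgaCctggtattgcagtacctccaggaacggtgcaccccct
Gm25813: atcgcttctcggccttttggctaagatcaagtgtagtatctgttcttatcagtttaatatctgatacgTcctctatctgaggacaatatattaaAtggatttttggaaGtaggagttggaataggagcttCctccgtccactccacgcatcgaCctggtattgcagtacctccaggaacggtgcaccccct
Counted from the 5′ end, *Gm25939* differs from *Gm25360* by T69C, G95A, and T154C, and *Gm25813* differs from it by G95A, C109G, G131C, and T154C. *Gm25360* measured 4.94, 6.42, 7.85, and 9.52 CPM in WT and 26.7, 35.5, 65.8, and 60.5 in *Il1rl1*-/- RPMs. *Gm25939* measured 31.6, 32.5, 26.8, and 35.5 in WT and 5.84, 10.2, 17.1, and 11.2 in the mutant. *Gm25813* measured 2.79, 3.52, 3.79, and 3.25 in WT and 22, 30.1, 58.9, and 47.1 in the mutant. Thus the first and last were higher in every mutant library and the second lower, at log2 fold changes of 2.72, 3.56, and -1.52 for *Gm25360*, *Gm25813*, and *Gm25939*. With robust dispersion *Gm25360* was not called in RPMs (adjusted p = 0.0559 by edgeR). Read pairs that map equally well to several copies were not counted, so these values rest on pairs that cover a distinguishing position or flanking sequence, and the amount of each copy is uncertain. Of 13 such copies with at most 20 substitutions from *Gm25360*, 4 were tested, and the fourth tested, *Gm26316*, averaged 2.85 and 2.28 CPM.

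The other genes higher in mutant RPMs by a log2 fold change above 1 were *Bend6*, *Kif21a*, and *Alad*. *Bend6*, a BEN domain repressor of Notch targets, averaged 6.09 ± 1.03 and 18.4 ± 2.56 CPM (mean ± SD, n = 4). *Kif21a*, a kinesin, had 6 counts in all over the WT libraries and 94 over the mutant ones, a ratio of 13.9 after scaling (95% exact interval 6.16 to 38.86, for counting error only). *Alad*, the second enzyme of heme synthesis, measured 6.45, 7.87, 7.58, and 8.36 CPM in WT and 23.6, 12.3, 28.7, and 33.9 in the mutant, a log2 fold change of 1.69 (SE 0.27, adjusted p = 0.0172 by edgeR). The mutant values were spread more widely than those of WT but did not overlap them. Smaller rises were found for the glutamine transporter *Slc38a1* (log2 fold change 0.91), the actin-binding protein *Lima1* (0.85), the pentraxin receptor *Nptxr* (0.93), the collagen *Col19a1* (0.97), the matrix protein *Postn* (0.65), and the lipid transporter *Abca9* (0.63).

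*Gpd1* (ENSMUSG00000023019, chromosome 15, 99717515 to 99725005, plus strand) links glycolysis to glycerolipid synthesis as glycerol-3-phosphate dehydrogenase. It measured 72.4, 65.3, 78.2, and 82.9 CPM in WT and 42.2, 31.8, 35.1, and 29.4 in *Il1rl1*-/- RPMs, a log2 fold change of -1.11 (SE 0.12, adjusted p = 0.000829 by edgeR). It lies 53.5 kb from *Lima1*, which was higher. *Adcy8*, an adenylyl cyclase, fell by 0.83 on the log2 scale.

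A neighbour of *Il1rl1* was lower in mutant RPMs. *Il1r1* (ENSMUSG00000026072, chromosome 1, 40225080 to 40317257, plus strand), the signalling receptor for IL-1, lies 112 kb from *Il1rl1*. It measured 15.3, 11.6, 11.4, and 19.0 CPM in WT and 4.94, 4.26, 4.89, and 5.83 in *Il1rl1*-/- RPMs, so the highest mutant value was below the lowest of WT. The log2 fold change was -1.53 (SE 0.21, adjusted p = 0.00501 by edgeR). In monocytes it averaged 0.183 and 0.88 CPM, and the difference between RPMs and monocytes was -3.57 (SE 0.59, adjusted p = 0.0382 for the interaction by edgeR, called in 2 of 8 fits with an RPM library left out). This rests on monocyte values near the floor, at most 0.323 CPM in WT and 1.12 in the mutant, where *Il1r1* was not tested by itself. Against pre-RPMs the interaction was -1.99 (SE 0.77, adjusted p = 0.531 by edgeR) and not called. *Gm38070*, whose single exon lies within *Il1r1* on the same strand without overlapping its annotated exons, had a log2 fold change of -1.68 (SE 0.28, adjusted p = 0.0204 by edgeR), and the counts cannot tell its reads from those of unspliced *Il1r1* RNA.

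Immediately beyond *Il1rl1*, the IL-18 receptor chains *Il18r1* and *Il18rap* were also at low levels. *Il18r1* measured 4.73, 8.70, 2.98, and 3.02 CPM in WT and 2.25, 0.982, 0.222, and 1.30 in the mutant, a log2 fold change of -2.05 (SE 0.50, adjusted p = 0.2 by edgeR, and 0.0258 with the replicate block). *Il18rap* had a log2 fold change of -1.22 (SE 0.36, adjusted p = 0.39 by edgeR). NK and T cells express both genes, and the median log2 fold change of 13 of their markers was -0.78. The part of these cells in the values was not tested. Of 18 genes of the IL-1 receptor family and its ligands, 8 were tested, *Il1r1* alone was called, and the median log2 fold change was -0.29. That median includes the neighbours *Il1r1*, *Il18r1*, and *Il18rap*. The other tested members were *Il1rap* at -0.45, *Il1a* at -0.14, *Il1b* at 0.16, *Il18* at 0.20, and *Il18bp* at 0.29. *Il33* and *Il1r2* had 3 counts or fewer in every RPM library.

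Called genes were frequent around the targeted gene. On chromosome 1, 2 of 11 genes tested at most 1 Mb from *Il1rl1* were called (18.2%), and 8 of 290 at most 50 Mb from it (2.76%), 4 higher and 4 lower, against 18 of 10860 elsewhere (0.166%). The 8 called genes of chromosome 1 all lie within those 50 Mb, but they are not all independent. The 2 within 1 Mb are *Il1r1* and *Gm38070*, whose reads cannot be told from unspliced *Il1r1* RNA. No further gene was called at most 5 Mb away (2 of 51 tested). Of the others within 1 Mb, *Il18r1* and *Il18rap* are described above. *Cnot11*, *Map4k4*, and *Tbc1d8* had log2 fold changes of -0.39, -0.40, and -0.32 (unadjusted p of 0.031, 0.034, and 0.040 by edgeR). Over all genes, 4.07% were lower at an unadjusted p under 0.05. *Mfsd9*, *Rnf149*, *Gm15832*, and *Snord89* had values of 0.61, 0.13, 0.31, and 0.15. The U2 copies *Gm25360* and *Gm25939*, whose amounts are uncertain, are also among the 8. The 6 called genes of chromosome 15 (1.36% of 442 tested) and the 4 of chromosome 3 (0.703% of 569) were the other groups, whereas 10 chromosomes in all held a called gene. These are counts without a test, and positions near *Il1rl1* cannot be told apart from the genotype in this design.

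**Figure D3:**
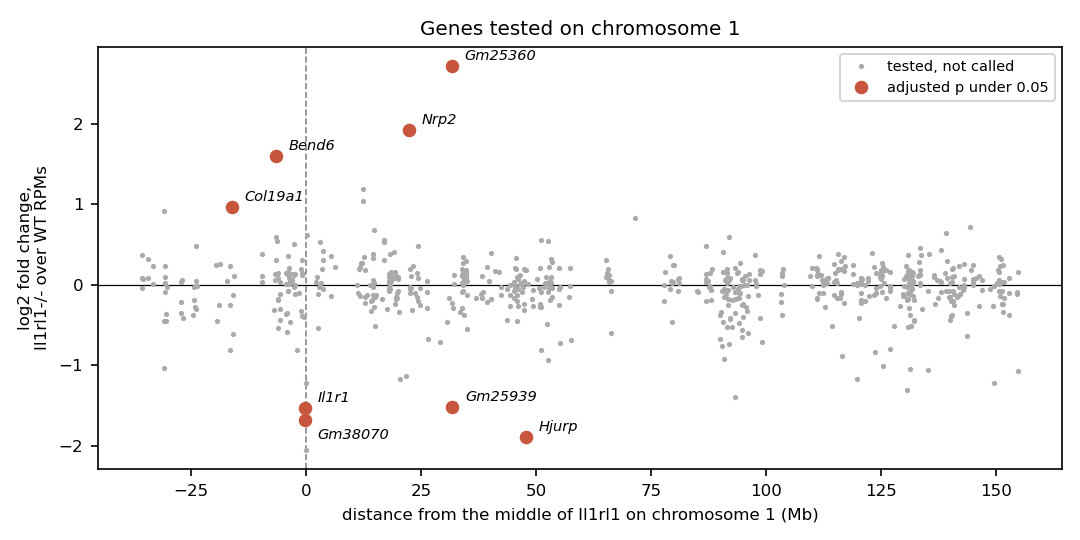
The log2 fold change of *Il1rl1*-/- over WT RPMs on the y axis for every gene tested on chromosome 1, by its distance in Mb from the middle of *Il1rl1* on the x axis, with called genes in red. The 8 called genes lie at most 50 Mb from *Il1rl1*, 4 above 0 and 4 below it.

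Genes that mark RPMs were not called lower in *Il1rl1*-/- RPMs. None of 23 RPM-associated genes was called in either direction (6 higher at an unadjusted p under 0.05), and their median log2 fold change was 0.13 beside -0.00121 for all genes. All 23 had a log2 fold change above 0, as had 49.7% of all genes, and every 95% interval lay within 1 unit of 0. Many of these genes are expressed together, so the number above 0 is not that of independent genes. *Spic* had a log2 fold change of 0.29 (95% interval 0.06 to 0.53, adjusted p = 0.593 by edgeR). That of *Vcam1* was 0.13 (-0.13 to 0.40), *Adgre1* 0.21 (-0.03 to 0.45), and *Treml4*, a receptor of dying cells, 0.13 (-0.10 to 0.37). The highest was that of *Hpgd*, which inactivates prostaglandins, at 0.50 (SE 0.14, adjusted p = 0.316 by edgeR, and 0.0422 with the replicate block), and the lowest that of the transcription factor *Maf*, at 0.03.

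The iron and heme recycling genes gave a like picture, with none of 26 tested called (3 higher unadjusted), 21 above 0, and a median log2 fold change of 0.10. *Hmox1*, which encodes heme oxygenase-1, averaged 1041 ± 145 CPM in WT and 1331 ± 132 in the mutant (mean ± SD, n = 4) at a log2 fold change of 0.35 (95% interval 0.09 to 0.62, adjusted p = 0.531 by edgeR). *Slc40a1*, the iron exporter ferroportin, averaged 1667 ± 207 and 2132 ± 163 CPM (mean ± SD, n = 4) at a log2 fold change of 0.36 (0.10 to 0.61, adjusted p = 0.517 by edgeR). The heavy chain of ferritin, *Fth1*, had a log2 fold change of 0.05 (-0.27 to 0.37), the light chain *Ftl1* 0.28 (-0.02 to 0.59), the heme transporter *Slc48a1* 0.11 (-0.27 to 0.48), and the heme-sensing repressor *Bach1* 0.19 (-0.03 to 0.42). None of these intervals reached a log2 fold change of -1 or 1. The lowest value was that of the porphyrin exporter *Abcg2*, at -0.33 (-0.85 to 0.19). *Lcn2*, an iron carrier, had between 0 and 6 counts and was not tested.

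**Figure D4:**
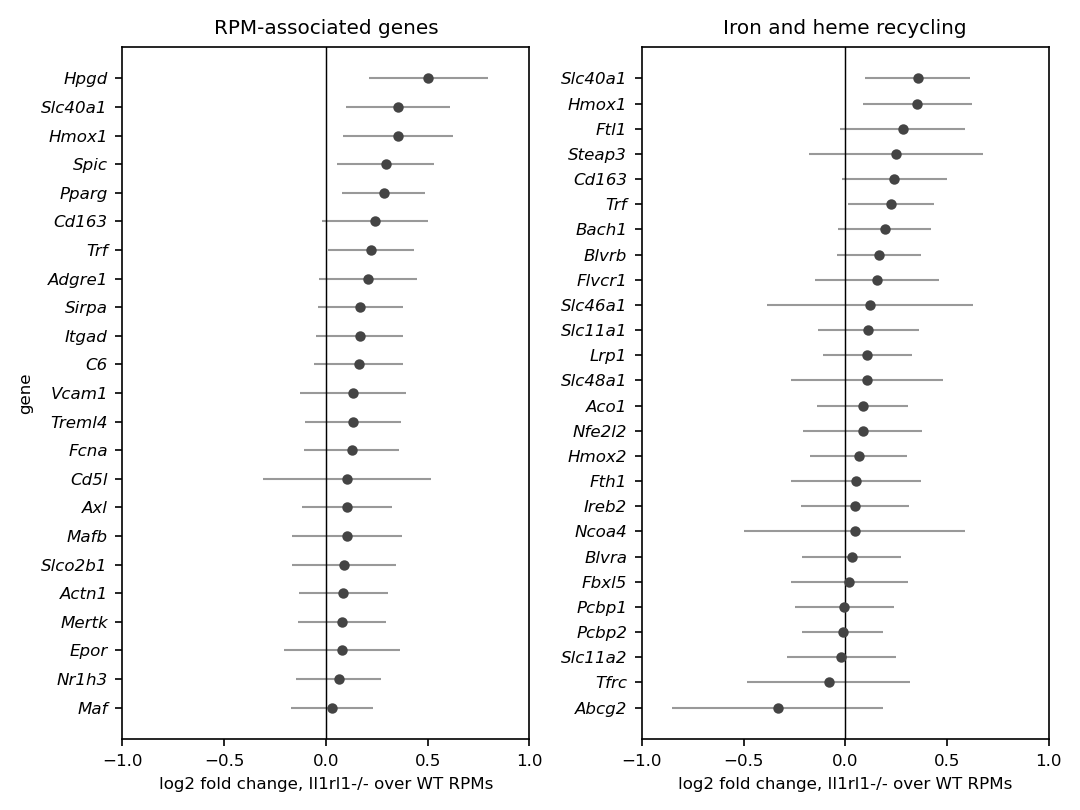
The log2 fold change of *Il1rl1*-/- over WT RPMs on the x axis, with 95% confidence intervals, for the 23 RPM-associated genes and the 26 iron and heme recycling genes tested, 4 of which are in both panels. Every point in the left panel lies above 0, none was called, and no interval reaches 1 or -1.

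Among genes for the uptake of red cells and dying cells, none of 27 tested was called (4 higher and 2 lower unadjusted), at a median log2 fold change of 0.11. The complement genes *C1qa*, *C1qb*, and *C1qc* and the receptors *Mertk* and *Axl* had log2 fold changes between 0.07 and 0.15. The highest value was that of *Siglec1*, a sialic acid receptor of splenic macrophages, which measured 40.03 ± 4.77 CPM in WT and 70.8 ± 20.7 in the mutant (mean ± SD, n = 4), at a log2 fold change of 0.82 (SE 0.18, adjusted p = 0.138 by edgeR, and 0.00157 with the replicate block). The lowest was that of the integrin *Itgb3*, at -1.51 (SE 0.63, adjusted p = 0.659 by edgeR).

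Genes downstream of the receptor showed no calls. Among 30 genes of MyD88 and ERK signalling tested, the median log2 fold change was 0.04, with 1 higher and 2 lower at an unadjusted p under 0.05, and the values ranged from -0.76 for the immediate early gene *Egr1* to 0.52 for *Fos*. Among 14 genes of GATA, ETS, and partner factors tested, it was -0.03, with 1 higher and 1 lower unadjusted. *Ets1*, an ETS factor of lymphocytes, averaged 50.6 ± 21.5 and 41.8 ± 11.02 CPM (mean ± SD, n = 4) at a log2 fold change of -0.29. *Gata2* had counts of 5, 14, 1, and 8 in WT and 9, 2, 1, and 3 in *Il1rl1*-/- RPMs, and *Gata1* between 5 and 15 in WT and between 6 and 13 in the mutant. Both were removed by the expression filter and not tested in the main fit, so no statement about a difference in them is made. A GATA motif, that is, A or T, then GATA, then A or G, on either strand, was present in a promoter window of 4 of the 15 called genes with a RefSeq promoter on GRCm38.p6 (250 bases before to 50 after the start), and in those of 21.7% of 8296 genes tested. The 4 were *Golph3l*, *Lima1*, *S100a9*, and *Abca9*, and a match of letters is not a site of binding.

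In lipid handling, 31 genes were tested, *Abca9* was called higher and *Gpd1* lower, and the median log2 fold change was 0.09. *Apoe*, the apolipoprotein that takes up exported cholesterol, averaged 726 ± 91.5 CPM in WT and 1037 ± 113 in the mutant (mean ± SD, n = 4) at a log2 fold change of 0.52 (SE 0.12, adjusted p = 0.196 by edgeR, and 0.0207 with the replicate block). The fatty acid desaturases *Scd1* and *Scd2* had log2 fold changes of -0.84 (adjusted p = 0.325 by edgeR) and -0.53 (adjusted p = 0.15 by edgeR). Of 25 interferon-stimulated genes tested, none was called (6 higher unadjusted), 20 were above 0, and the median was 0.25, with values from -0.47 for *Zbp1* to 1.35 for *Oas2*.

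Immunoglobulin genes and markers of plasma cells, B cells, NK and T cells, and monocytes had lower average levels in mutant than in WT RPM libraries, with few calls. In bulk RNA, fewer cells of a type and less RNA per cell cannot be told apart. Over 267 immunoglobulin genes, the summed level was 1007, 1655, 587, and 484 CPM in WT replicates 1 to 4 and 495, 253, 121, and 131 in the mutant. Thus it was lower in the mutant for each number, although the highest mutant library exceeded the lowest of WT. Of 19 immunoglobulin genes tested, 17 had a log2 fold change below 0, with a median of -1.58, and *Igkv9-124* was called (counts of 66, 104, 58, and 18 in WT and 3, 4, 0, and 0 in the mutant). With the replicate block, 8 were called lower.

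Of 10 plasma cell markers, 6 were tested and none called (4 lower unadjusted), at a median log2 fold change of -1.80. Their summed level ranged from 403 to 1346 CPM in WT and from 115 to 427 in the mutant. *Ighm*, *Igkc*, *Jchain*, and *Mzb1* had log2 fold changes of -2.03, -1.96, -1.87, and -1.73, with edgeR adjusted p from 0.104 to 0.366. All 4 were called lower with the replicate block (edgeR adjusted p from 2e-05 to 0.018), which rests on a pairing by number that the sources do not give. The others tested were not called with the block, *Igha* at -0.57 and *Prdm1*, which went the other way, at 0.22. Of 11 B cell markers, all were tested, none was called (6 lower unadjusted), and 2 were called lower with the block. The median was -0.77, although *Bank1* (189 and 202 CPM on average), which made up most of the sum of the list, and *Cd79b* (11.3 and 13.7) had log2 fold changes of 0.10 and 0.26. The summed B cell level was from 241 to 329 CPM in WT and from 248 to 262 in the mutant. Of 19 NK and T cell markers, 13 were tested and none called (4 lower unadjusted), at a median of -0.78, with summed levels from 74.7 to 191 and from 65.1 to 121 CPM, and *Cd3g* and *Cd7* were called lower with the block. Of 12 monocyte markers, 6 were tested and none called (5 lower unadjusted), at a median of -1.14, with summed levels from 43.0 to 135 and from 32.4 to 57.9 CPM, and *Fn1* was called lower with the block. No marker of these lists was at 0 in all 8 libraries. Among the replicates of either genotype, levels of plasma, T, and monocyte markers were higher in numbers 1 and 2 than in 3 and 4.

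*S100a9* (ENSMUSG00000056071, chromosome 3, 90692632 to 90695721, minus strand), which encodes a calcium-binding protein of neutrophils and monocytes, was the only called gene of the other-cell marker lists besides *Postn*. It measured 6.88, 4.56, 4.06, and 6.96 CPM in WT and 1.80, 0.819, 0.667, and 0.648 in *Il1rl1*-/- RPMs, a log2 fold change of -2.51 (SE 0.37, adjusted p = 0.00816 by edgeR). In the mutant, *S100a9* had counts of 8, 5, 3, and 3, at the floor in replicates 3 and 4, so the size of its fall is uncertain. Its partner *S100a8* had counts of 8, 9, 13, and 5 in WT and 1, 2, 0, and 1 in the mutant and was not tested in RPMs alone. The interaction of *S100a8* with pre-RPMs was tested and called, at -3.73 (SE 0.64, adjusted p = 0.0112 by edgeR). In pre-RPMs, where *S100a9* averaged 32.1 and 53.7 CPM, its log2 fold change of 0.73 was not called (adjusted p = 0.228 by edgeR). The stages differed by -3.23 (SE 0.52, adjusted p = 0.00758 for the interaction by edgeR). The 13 neutrophil markers summed to between 50.1 and 63.8 CPM in WT and between 41.3 and 46.7 in the mutant, of which *Csf3r* alone, at 38.7 and 40.7 on average, made up most. Without it the other 12, *S100a9* among them, summed to between 12.8 and 23.8 CPM in WT and between 2.44 and 6.74 in the mutant. The sums did not overlap with or without *Csf3r*, which was set aside with its level known. Both sums hold the called gene *S100a9*, so they are no separate evidence beside it. *Ly6g*, *Elane*, and *Mmp8* had 3 counts or fewer in every library. The part of other cells in *S100a9* and *Igkv9-124* was not tested.

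**Figure D5:**
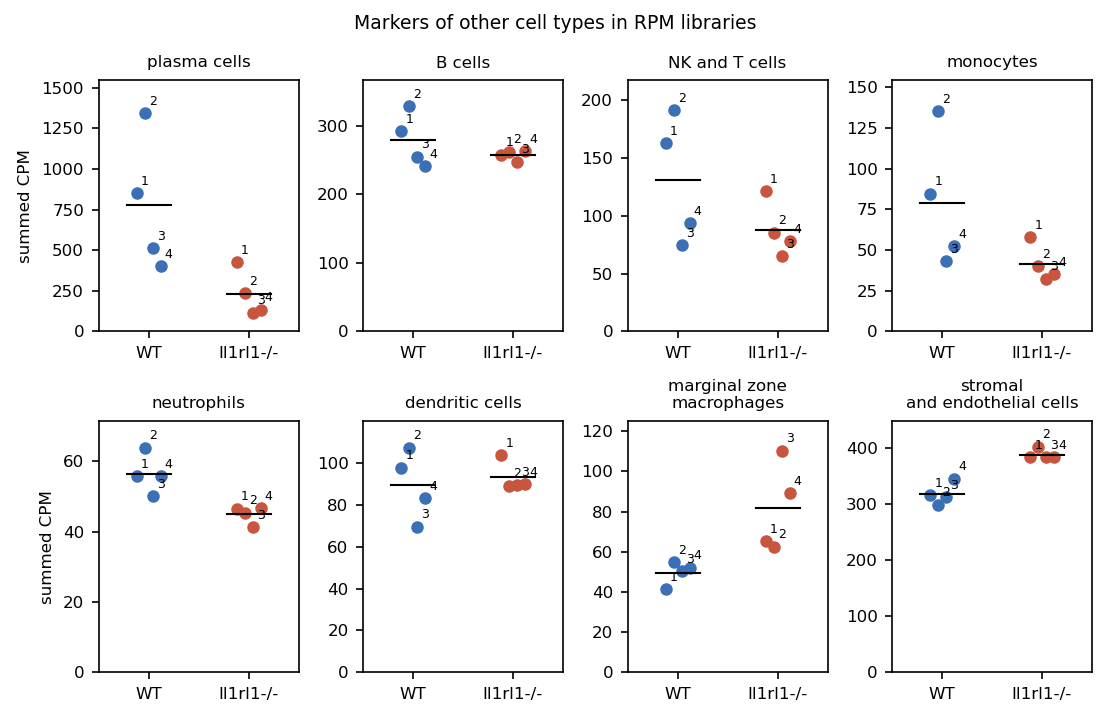
The summed CPM of 8 marker lists of other cell types on the y axis, each from 0 and on its own scale, in the 4 WT (blue) and 4 *Il1rl1*-/- (red) RPM libraries, with the replicate number beside each point and a line at each mean. Plasma cell markers are lower in the mutant for each number, at a mean of 228 against 779 CPM, whereas dendritic cell markers average 93.0 against 89.3.

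Not all markers of other cell types had lower levels in the mutant. Of 17 stromal and endothelial markers, 4 were tested, and *Postn* was called higher, with 84.0, 83.7, 88.0, and 90.3 CPM in WT and 135, 126, 124, and 157 in the mutant (log2 fold change 0.65, SE 0.10, adjusted p = 0.0124 by edgeR). Of the others, *Vwf*, *Stab2*, and *Pdgfra* were tested and not called, at log2 fold changes of 0.34, 0.13, and -0.19. Those with 3 counts or fewer in every library were *Emcn*, *Col1a1*, *Col3a1*, *Dcn*, and *Lum*, whereas *Col1a2* had between 2 and 7, *Pdgfrb* between 4 and 10, and *Cxcl12* between 2 and 13. The part of stromal cells in the level of *Postn* was not tested. Erythroid transcripts, which RPMs can take in with red cells, varied most, with summed levels from 1407 to 22842 CPM in WT and from 878 to 14833 in the mutant, and of 11 tested none was called. Of 3 eosinophil markers tested none was called, and *Ccr3* averaged 315 and 340 CPM. Of 6 marginal zone macrophage markers, 3 were tested and none called, and *Siglec1* made up most of their sum, which ranged from 41.5 to 54.7 CPM in WT and from 62.5 to 110 in the mutant. Of 12 dendritic cell markers, 7 were tested and none called, at a median log2 fold change of -0.23. *Kit* was the single basophil and mast cell marker tested and was not called, and none of 7 platelet markers was tested.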

How the data were processed

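After adapter trimming (cutadapt), the authors mapped reads to the mouse genome using STAR 2.5.1. Read pairs overlapping exons were summed per gene name by featureCounts 1.6.2, by strand, from Ensembl release 95 on GRCm38. The deposited values are raw counts for 54735 genes, neither normalized nor filtered. Libraries came from a stranded total RNA kit, and groups and replicate numbers from the labels. Whether same-numbered mutant and WT mice shared more than the sequencing index is not given in the sources used here. The 4 same-numbered pairs of RPM libraries had deviations from their group means that correlated across genes at 0.182 to 0.223, so the number was also used as a block. Pairs of unlike number ranged from -0.286 (WT replicate 3 with mutant replicate 2) to 0.302 (WT replicate 3 with mutant replicate 4). The correlations thus do not single out the pairing by number on which the block rests. No replicate pair differed by as little as sampling noise (chi-square per degree of freedom at least 5.13).

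Genotypes were compared with edgeR 4.0.16 in R 4.3.3 (quasi-likelihood F test, TMM, filterByExpr, adjusted p under 0.05 by Benjamini-Hochberg across every gene tested), with 95% intervals and SE from its F statistic. Differences between cell types were tested as interactions. CPM was computed here with TMM factors within each cell type, and log2 CPM with a prior count of 2. *Il1rl1* was compared by an exact permutation test. Alternatives were DESeq2 1.42.0, RLE size factors, other filters, all 24 libraries in a single fit, the replicate block, glmTreat, robust dispersion, the removal of *Gm42418* and mitochondrial genes, and each library left out. Tests were checked on simulated data. limma 3.58.1, Python 3.11.15, NumPy 2.4.6, pandas 2.3.3, SciPy 1.17.1, and matplotlib 3.10.9 were used.

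The comparison, the 20 gene lists, and the tests were chosen with earlier results of these data known. Genes were chosen for naming by rules, and not every gene so chosen is named here. The rules took the called genes, those at most 1 Mb from *Il1rl1*, the highest and lowest tested member of a list, a fixed set of RPM genes, and up to 5 genes of the smallest p-value per interaction. Any other gene was named after its values were seen. Counting intervals and floors cover counting error only. Nothing states that same-group libraries were prepared apart, so p-values measure the spread between these mice and libraries. Samples of chromatin accessibility, 24 in number, were not analysed here.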

Additional observations from a re-analysis of the deposited data

Results flagged for a closer look

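In several groups of 4 RPM libraries a single library lay far from the others of its genotype, by Dixon's 95% limit, which chance alone passes in about 1 of 20 groups. The genes chosen by the rules above numbered 59, each with 2 genotype groups, so at this rate a few groups would pass by chance. Among mutant libraries, replicate 1 was high for *Bend6* (22.2 CPM, with the next at 17.3), *S100a9* (1.80, next 0.819), and *Maf* (437, next 396). For *Bend6* and *S100a9* it remained on the same side of all WT libraries. Among WT libraries, replicate 4 was high for *Nptxr* (16.5 CPM, next 13.5) and replicate 2 for *Itgam* (4.35, next 1.72).

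The genotype difference in RPMs departed from that in pre-RPMs by an interaction test for *Nrp2* (2.72 in log2 units), *Snx9* (1.39), *Arhgap10* (1.58), and *Gabbr1* (1.39) upwards, and for *Pou6f1* (-1.84), *Adam23* (-2.56), *S100a9* (-3.23), and *Il1rl1* (-2.67) downwards. It departed from that in monocytes for *Snx9* (1.85) and *Nrp2* (2.66) upwards and for *Il1rl1* (-3.28) and *Il1r1* (-3.57) downwards. *Il1r1* was near the floor in monocytes. The value of *Il1rl1* against monocytes had edgeR's adjusted p of 0.0269, and of 0.058 with the replicate block.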

How the results depend on the processing

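The 26 calls were all made with DESeq2, which called 56 genes of 17958 tested, with RLE size factors, without *Gm42418* and mitochondrial genes, with every gene of at least 1 count tested (272 genes called of 32410, 61 higher and 211 lower), and with the replicate block (81). A log2 fold change of 0.5 tested by glmTreat left 15, and all 24 libraries in a single fit kept 16 of the 26, without *Lima1*, *Kif21a*, *S100a9*, *Arhgap10*, *Postn*, *Adcy8*, *Nptxr*, *Gm38070*, *Col19a1*, and *Abca9*. Robust dispersion called 32 genes (18 higher and 14 lower) and 23 of the 26, without *Gm25360*, *Igkv9-124*, and *Alad* (edgeR adjusted p of 0.0559, 0.0648, and 0.0648). With at least 10 counts in every library 19 were called, 18 of them among the 26, and the other 8 were not tested. Leaving out each library gave between 19 (without WT replicate 1) and 38 calls (without WT replicate 3), and 19 of the 26 genes were called in all 8 such fits. *Postn*, *Adcy8*, *Alad*, *Nptxr*, *Gm38070*, *Col19a1*, and *Abca9* were not, with *Abca9*, *Col19a1*, and *Gm38070* called in only 2 of 8. No called gene changed sign. Leaving out a library turned the sign of the uncalled values of *Maf*, which ranged from -0.0056 (without mutant replicate 1) to 0.049, *Gabbr1*, from -0.15 to 0.011 (without mutant replicate 1), and *Pdgfra*, from -0.68 to 0.036 (without mutant replicate 2). Calls in the gene lists were 5, 10 with DESeq2, 18 with the replicate block, and 3 to 7 with a library left out, lowest without WT replicate 1. Calls at most 50 Mb from *Il1rl1* were 8, 20 with every gene of at least 1 count, and 6 to 8 with a library left out. The difference of *Il1rl1* ranged from -1.16 to -0.67. For the interaction with pre-RPMs (13), DESeq2 and the replicate block gave 36 each, every gene of at least 1 count 224, and libraries left out 10 to 18. For that with monocytes (4), these were 38, 21, 165, and 2 to 4, the lowest without WT replicate 4 or mutant replicate 3. Calls in pre-RPMs (59) were 145 with the replicate block, 265 with every gene of at least 1 count, and 37 to 68 with a library left out, lowest without WT replicate 1. Those in monocytes (7) were 26 with DESeq2, 27 with the replicate block, 139 with every gene of at least 1 count, and 1 to 8 with a library left out, lowest without mutant replicate 2. Of the 8 RPM libraries, 2 correlated best with their own number in the other genotype. The causes of these changes were not tested. Genes that the expression filter removed for low counts, such as *Gata2*, were not tested in the main fit.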
